A study of Mus musculus with 3 samples.

Results

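The class named T cells, without a finer name, comprised 436 of the 12668 annotated immune cells of 3 mouse brain libraries. Its members were chosen by the depositors' own class name, T cells, and stand apart from the depositors' CD8 T cells, CD4 T cells and NK cells classes. They numbered 86 of 4100 cells in the library labelled HGG, 321 of 5024 in the library labelled LGG (low grade gliomas) and 29 of 3544 in the no-tumor library. A parallel label column, made with the reference-based annotation tool SingleR, gave only 98 of these 436 cells the name of a T cell, an NKT cell or a gamma delta T cell (Tgd). It named 265 of them microglia and 43 macrophages, and the remaining 30 carried other names. The deposited names are therefore at odds with each other for most of the class, and the members are described below in these 4 groups, called T-named, microglia-named, macrophage-named and otherwise-named. Microglia names were not particular to the class. The same column gave them to 81 of 198 cells of the B cells class (40.9%) and 108 of 150 immature erythrocytes (72.0%). They were rarer in the CD8 T cells (11.9%), CD4 T cells (16.1%) and NK cells classes (17.1%).

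T cells are lymphocytes that recognise their targets through a receptor whose signalling chains include CD3 delta and CD3 epsilon, encoded by Cd3d and Cd3e. CD8 T cells can kill the cells they recognise, CD4 T cells direct other immune cells, and regulatory T cells, a CD4 subset, restrain immune responses. Healthy brain tissue holds few T cells, and microglia, its resident macrophages, are its main immune cells. In droplet sequencing, a droplet that captures a pair of cells gives a single barcode with the RNA of both, called a doublet, which usually carries more unique molecular identifiers (UMIs, each a tag of a captured RNA molecule) than a single cell.

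Tissue was taken from the right hemisphere, at the tumor or at a normal site of like size, dissociated with papain and enriched for CD45-positive cells, CD45 being a surface protein of white blood cells. Each group was 1 library, so that no comparison has a replicate check and no test was possible. Ages were labelled as 6 to 8 weeks in the HGG library, 3 to 4 weeks in the LGG library and 0 to 2 weeks in the no-tumor library. Whether they count from birth or from injection is not stated. The effects of age, of library and of tumor cannot be told apart. The library labelled HGG has a title with the words no tumor, but HGG in both its name and its description, and each direction below that involves this library rests on the HGG name. The labels used here name no strain, genotype, injected cell or number of animals per library. The values analysed were per cell and not per gene, so the class could not be checked against Cd3e and Cd3d. All cell names, clusters, phases and doublet calls below are the depositors'. Intervals are 95% intervals, exact (Clopper-Pearson) for a share, and they cover counting error only, since cells of a library are not separate animals. No member shared its barcode with a cell of another library, while 15 barcodes occurred in more than 1 library across all cells.

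The class was most frequent in the LGG library. It made up 2.10% of the HGG cells (1.68 to 2.58%), 6.39% of the LGG cells (5.73 to 7.10%) and 0.818% of the no-tumor cells (0.549 to 1.17%). A share was called different if it was at least 1.5 times as high or as low and its exact interval did not touch the other. The class was 7.81-fold as frequent in LGG as in no tumor (Katz log interval 5.35 to 11.4) and was called higher. Of the 15 deposited classes, 60% were called higher in this comparison. The class was 0.328-fold as frequent in HGG as in LGG (0.260 to 0.415) and was called lower, as were 40% of the classes. It was 2.56-fold as frequent in HGG as in no tumor (1.69 to 3.90) and was called higher, as were 40% of the classes. These ratios depended on which cells were counted. Among cells outside the microglia class, HGG over no tumor turned to 0.933 (0.618 to 1.41) and LGG over no tumor stood at 2.49 (1.72 to 3.61). Among lymphoid cells, HGG over LGG turned to 1.09 (0.928 to 1.29), HGG over no tumor stood at 1.62 (1.17 to 2.26) and LGG over no tumor, without a call, at 1.49 (1.09 to 2.02). Within the range of UMIs common to the libraries (2985.2 to 14346.3 UMIs), the 3 calls held at 13.5-fold in LGG over no tumor, 0.497-fold in HGG over LGG and 6.68-fold in HGG over no tumor.

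By the first SingleR column, the T-named share of the class did not differ between the 3 libraries beyond counting error. T-named cells formed 23.3% of the class in HGG (14.8 to 33.6%, 20 cells), 22.7% in LGG (18.3 to 27.7%, 73 cells) and 17.2% in no tumor (5.85 to 35.8%, 5 cells). The difference of HGG minus LGG was 0.51 percentage points, with an interval of -8.58 to 11.3 points (Newcombe). Microglia-named cells, 48 in HGG, 201 in LGG and 16 in no tumor, formed 55.8%, 62.6% and 55.2% of the class in that order. The difference of HGG minus LGG was -6.80 points (-18.5 to 4.59), so a difference in either direction remains possible. Macrophage-named cells numbered 10 in HGG, 31 in LGG and 2 in no tumor. Otherwise-named cells numbered 8 in HGG, 16 in LGG and 6 in no tumor, and their share was 15.7 points lower in LGG than in no tumor (interval of LGG minus no tumor -33.5 to -4.47 points). These 30 cells were 15 innate lymphoid cells (lymphocytes without the antigen receptors of T and B cells), 6 dendritic cells, 3 mast cells, 2 NK cells, 2 monocytes, 1 basophil and 1 eosinophil. Within the T-named group, 60 cells were named NKT (7 in HGG, 52 in LGG, 1 in no tumor), 32 T cells (11, 17 and 4) and 6 Tgd (2, 4 and 0). The NKT majority was not shared by a SingleR column of finer names. Its NKT names covered 8, 7, 2 and 1 members of the class.

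**Figure D1:**
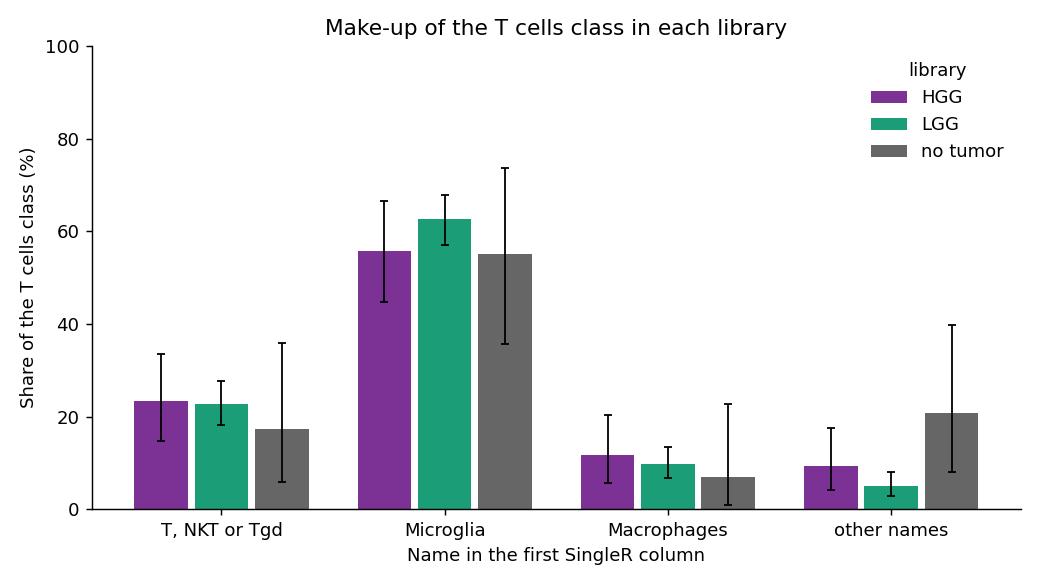
Share of the class named T cells (y axis, percent) by its name in the first SingleR column (x axis) in the HGG, LGG and no-tumor libraries. Bars are shares and lines exact 95% intervals, and microglia-named cells are the highest bar in all 3 libraries, at 55.8%, 62.6% and 55.2%.

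Both main groups of names took the same order of library shares. T-named members were 10.3-fold as frequent in LGG as in no tumor (4.17 to 25.5, called higher) and 0.336-fold as frequent in HGG as in LGG (0.205 to 0.550, called lower). The T-named call in HGG over LGG was lost within the common range of UMIs (0.628, 0.358 to 1.10). Microglia-named members were 8.86-fold as frequent in LGG as in no tumor (5.34 to 14.7, called higher) and 0.293-fold as frequent in HGG as in LGG (0.214 to 0.40, called lower). For HGG against no tumor, the microglia-named members were called higher at 2.59-fold (1.48 to 4.56). This call was lost without doublet calls (1.92, 1.02 to 3.61), and the direction turned outside the microglia class (0.943, 0.539 to 1.65). The T-named members stood at 3.46-fold (1.30 to 9.20) from 20 and 5 cells, without a call. The depositors' microglia class moved otherwise, at 0.506-fold in LGG over no tumor (0.487 to 0.525). That class does not hold all microglia-named cells. The first SingleR column also gave microglia names to 98.1% of the glioma associated macrophages, 99.6% of the macrophages class and 97.1% of the activated microglia. The microglia-named cells of those classes are not set beside the members by library here. Doublet calls lay on 26.4% of the microglia-named members and on 1.24% of the microglia class, and without the cells so called the ratio of LGG over no tumor was 7.65 (4.43 to 13.2) for these members. Outside the microglia class, the microglia-named members stood at 2.83-fold in LGG over no tumor (1.71 to 4.67) and the T-named members at 3.29-fold (1.33 to 8.10).

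**Figure D2:**
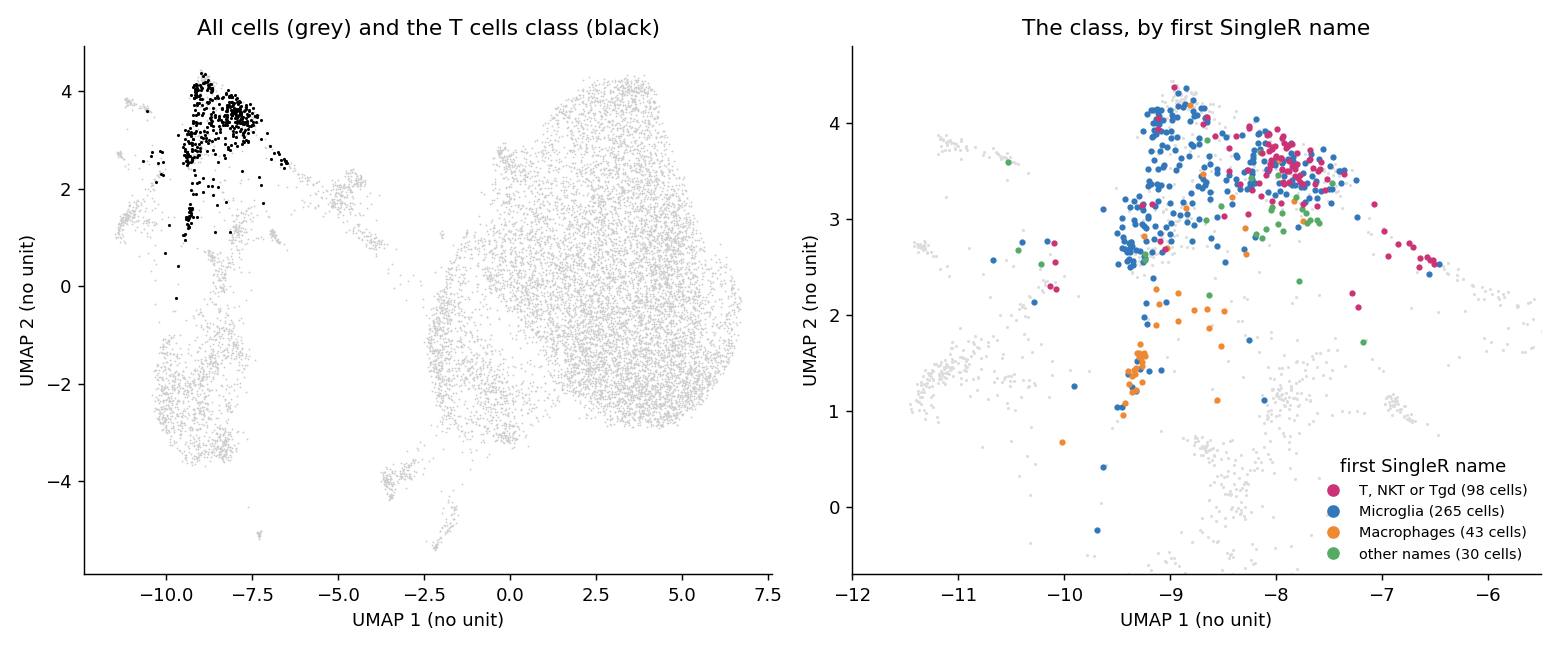
Deposited two-dimensional layout (UMAP, axes without unit) of all 12668 cells in grey with the class in black (left), and an enlarged view with the class coloured by its first SingleR name (right). The class spans -10.7 to -6.46 on the first axis, away from the large body of cells on the right, with T-named cells centred at -7.94 and microglia-named cells at -8.82 (medians).

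The class was made of a pair of clusters that differed in names, depth and doublet calls. In the deposited clustering at resolution 1.5, 306 members lay in cluster 9 and 130 in cluster 10. The remaining cells of cluster 9 were 26 of the CD8 T cells, 19 of the NK cells and 2 of the activated microglia class, and those of cluster 10 were 132 of the CD8 T cells, 51 of the NK cells and 31 of the CD4 T cells class. Cluster 9 held 58 members from HGG, 231 from LGG and 17 from no tumor, and cluster 10 held 28, 90 and 12. Of the members in cluster 9, 246 were microglia-named (80.4%) and 13 T-named, with a median of 21044 UMIs and doublet calls on 79 (25.8%). Of those in cluster 10, 85 were T-named (65.4%) and 19 microglia-named, with a median of 7741.5 UMIs and doublet calls on 8 (6.15%). The depth gap between the clusters held in each library, with medians of 23608.5 UMIs in cluster 9 and 7730 in cluster 10 in HGG, 20681 and 7741.5 in LGG, and 17484 and 8614 in no tumor. The cluster 9 part was called in all 3 comparisons, at 9.59-fold in LGG over no tumor, 0.308-fold in HGG over LGG and 2.95-fold in HGG over no tumor. The cluster 10 part was called higher at 5.29-fold in LGG over no tumor (2.90 to 9.65) and lower at 0.381-fold in HGG over LGG (0.250 to 0.581). At 2.02-fold (1.03 to 3.96), it had no call in HGG over no tumor.

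Finer clusters separated a group with macrophage names. In a further deposited clustering, whose label gives no resolution, cluster 20 held 238 members (207 microglia-named) and cluster 30 held 117 (76 T-named). Cluster 36 held 42 members with mixed names, 27 microglia-named and 11 T-named, and a median of 14723 UMIs. Cluster 51 consisted of 28 cells, all of them members and none T-named. It held 1 cell from HGG, 25 from LGG and 2 from no tumor, 21 of them macrophage-named, with a median of 20907.5 UMIs and doublet calls on 10 (35.7%).

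Members carried more UMIs at the median than the rest of their library, and the microglia-named and macrophage-named members were the deep groups. The class had a median of 18743 UMIs per cell in HGG, 17984 in LGG and 16323 in no tumor, against 12774.5, 9676 and 8806 in the cells outside the class. T-named members had medians of 6937 UMIs in HGG, 7429 in LGG and 3260 in no tumor. Microglia-named members had 25305.5, 21422 and 17503, whereas the microglia class itself had 9072, 8646.5 and 8967. The lower quartile of the microglia-named members, 18663 UMIs in HGG, 14347 in LGG and 15344.8 in no tumor, was above the upper quartile of the microglia class in each library (17570.5, 11321 and 11230). Such depth was not particular to these members among microglia-named cells. The glioma associated macrophages class, 98.1% microglia-named, had a median of 19833 UMIs over all libraries, against 21573 for the microglia-named members. Doublet calls lay on 2.57% of that class. Macrophage-named members had medians of 20825.5, 15974 and 18309.5 UMIs. Otherwise-named members had 5639.5 UMIs in HGG and 7997 in LGG, below the cells outside the class, and 21372 in no tumor (6 cells). Detected genes followed the same order, with medians of 1990.5 in HGG, 2071 in LGG and 1360 in no tumor for T-named members and 4649.5, 4386 and 4309 for microglia-named members. The mitochondrial percent of UMIs differed between these groups in opposite directions by library. Its median was 3.43% in HGG, 3.71% in LGG and 4.69% in no tumor for T-named members, and 4.54%, 3.57% and 2.77% for microglia-named members.

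**Figure D3:**
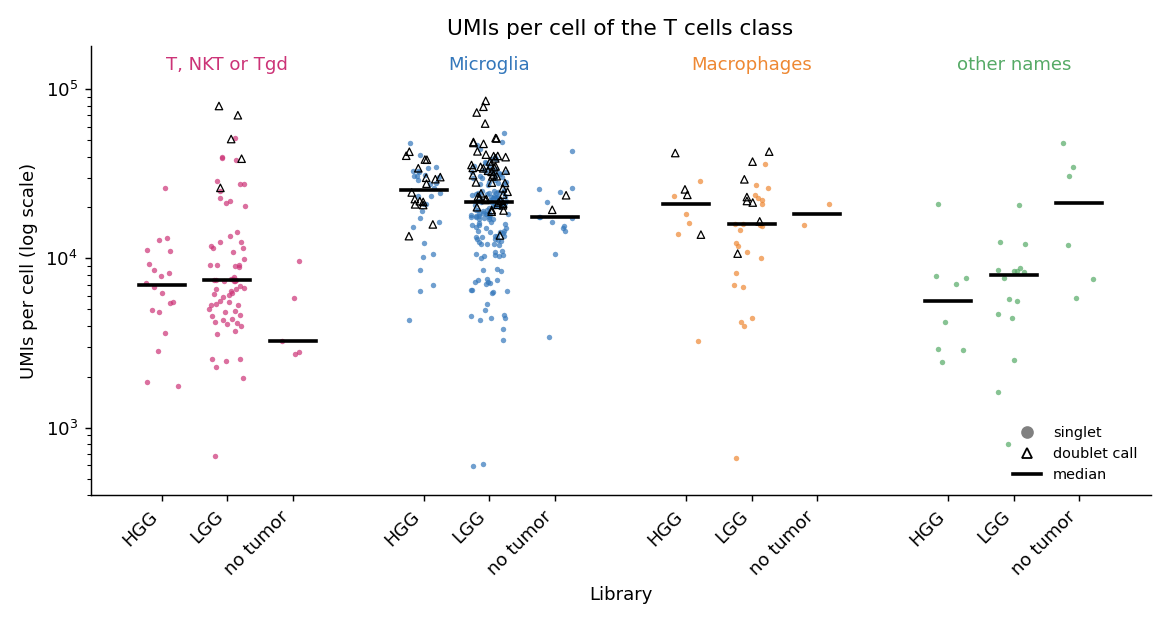
UMIs per cell of the class (y axis, log scale) by first SingleR name and library, with 1 point per cell, open triangles for cells with a doublet call and black lines at the medians. T-named cells have medians of 6937, 7429 and 3260 UMIs in HGG, LGG and no tumor, microglia-named cells 25305.5, 21422 and 17503, and the doublet calls lie at 10678 UMIs and above.

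Doublet calls were several times as frequent in the class as in the pool of all other cells. They fell on 87 of 436 members (20.0%, 16.3 to 24.0%), 67 with high and 20 with low confidence, and on 352 of the 12232 other cells (2.88%, 2.59 to 3.19%). By library they fell on 24.4% of the members in HGG (15.8 to 34.9%), 19.9% in LGG (15.7 to 24.7%) and 6.90% in no tumor (0.846 to 22.8%, 2 cells). The difference of HGG minus no tumor was 17.5 points (0.529 to 28.7), and that of HGG minus LGG was 4.48 points (-4.68 to 15.3). By name, doublet calls fell on 70 of 265 microglia-named members (26.4%, 21.2 to 32.2%) and 12 of 43 macrophage-named ones (27.9%, 15.3 to 43.7%). They fell on 5 of 98 T-named members (5.10%, 1.68 to 11.5%), all in LGG. No otherwise-named member had one (0 of 30, where the limit of 3 counts is 10.0% and the exact interval reaches 11.6%). In the depositors' CD8 T cells class, 19 of 159 cells had a doublet call (11.9%). In the microglia class, which held 6918 of the 12232 other cells, 1.24% did. The share was 18.4% in the monocyte (7.74 to 34.3%), 13.6% in the B cells (9.18 to 19.2%) and 11.8% in the neutrophil class (3.30 to 27.5%). These intervals overlapped that of the class. It was 12.2% in the intermediate monocyte-macrophage class (10.2 to 14.4%), below that interval. The remaining classes had at most 6.45% (CD4 T cells).

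The doublet calls followed depth, and within the upper strata of UMIs they were more frequent in the class than outside it over all libraries. Depth was not matched within a stratum. The class had no call among 53 members under 5000 UMIs or 76 members from 5000 to under 10000 UMIs. From 10000 to under 20000 UMIs, 9.09% of the members (4.45 to 16.1%) and 1.83% of the other cells (1.44 to 2.30%) had a call. From 20000 UMIs up, the shares were 39.1% (32.2 to 46.3%) in the class and 14.3% (12.8 to 16.0%) outside it. Within libraries in that deepest stratum, the class had 42.9% in HGG, 40.0% in LGG and 10.0% in no tumor (1 of 10 cells), against 7.16%, 22.5% and 50.0% outside it, so the order was turned round in no tumor. High depth with a doublet call was not particular to the class, since 18 of 33 CD8 T cells from 20000 UMIs up had a call (54.5%). Among members of that depth, 63 of 155 microglia-named (40.6%, 32.8 to 48.8%) and 5 of 18 T-named cells (27.8%, 9.69 to 53.5%) had a call, with overlapping intervals. Members without a call still had a median of 14185 UMIs. Whether the deep members without a call are single cells was not tested.

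The first SingleR column was the strictest of 6 label columns in giving T cell names, and the columns spread most in the LGG library. The first SingleR column named 98 members T and the first VHove column 130 (its regulatory T cells included). The second SingleR column named 148, the earlier annotation 170, the second VHove column 173 and the column made with scANVI, a label transfer model, 245. In LGG the T-named share of the class ran from 22.7% in the first SingleR column to 63.2% in the scANVI column (57.7 to 68.5%). In HGG it ran only from 23.3% to 37.2% (27.0 to 48.3%), and in no tumor from 17.2% to 34.5% (17.9 to 54.3%). By the scANVI column the T-named share was 26.0 points lower in HGG than in LGG (interval of HGG minus LGG -36.8 to -14.2 points), and by the earlier annotation 15.9 points lower (-25.8 to -4.44). By the other columns the interval of that difference included 0. Within the common range of UMIs, the differences turned to 4.70 points for the scANVI column (-13.0 to 16.8) and 2.96 points for the earlier annotation (-16.4 to 20.4). Without doublet calls they were -15.7 points (-28.7 to -2.36) and -11.3 points (-23.3 to 2.22) in the same order of columns. The scANVI column gave T names to 107 of the 265 microglia-named members, 21 of the macrophage-named and 20 of the otherwise-named. Of the members the scANVI column did not name T, 149 were named TAM 2 and 29 TAM 1. The earlier annotation put 163 members, all of them in cluster 9, into its first macrophage cluster and named 1 a microglial cell.

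**Figure D4:**
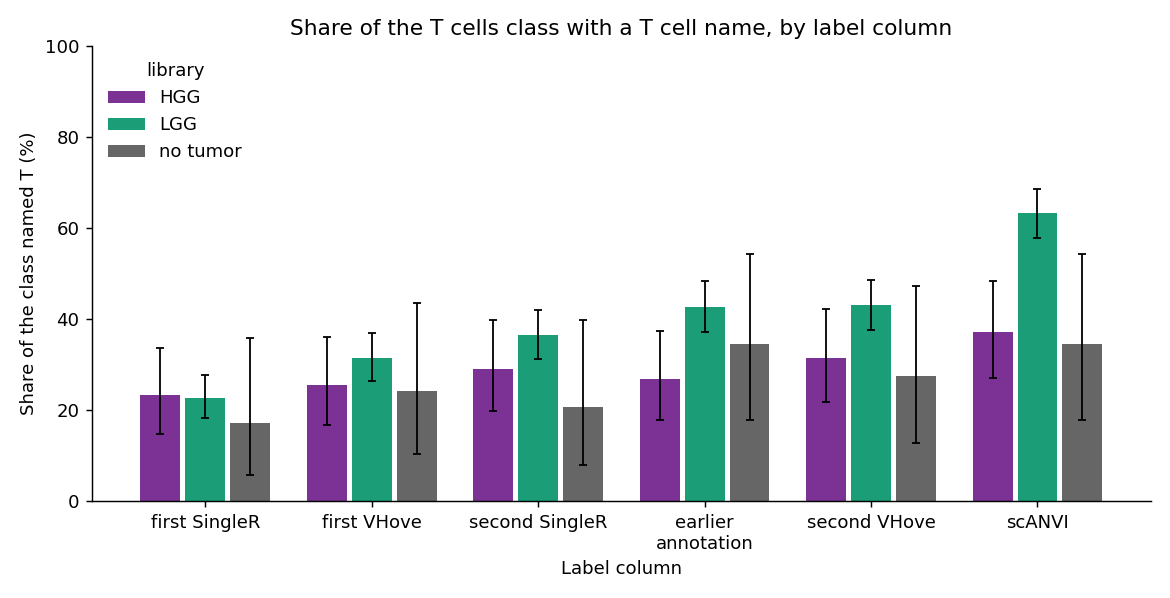
Share of the class with a T cell name (y axis, percent) in 6 deposited label columns (x axis) in the HGG, LGG and no-tumor libraries, with exact 95% intervals. The shares lie near each other in the first SingleR column (23.3%, 22.7% and 17.2%) and apart in the scANVI column (37.2%, 63.2% and 34.5%).

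Counting how many of the 6 columns gave a T cell name split the class into members with none, members with some and members with nearly all. The columns were computed on the same cells and are not independent. Further label columns outside these 6 gave nearly all members the name T cells, and they are not counted among the T names here. A column of final cell types did so for 423 members (97.0%), 261 of them microglia-named, and the columns named SCSA for 413 (94.7%) and 426 (97.7%). None of the 6 columns named 176 members T (40.4%, 35.7 to 45.1%). Of the rest, 1 to 4 columns named 145 (33.3%, 28.8 to 37.9%), and 5 or 6 named 115 (26.4%, 22.3 to 30.8%), 91 of them in all 6. Members with 5 or 6 T names lay mostly in cluster 10 (99 of 115), with a median of 7468 UMIs and doublet calls on 5 (4.35%, 1.43 to 9.85%). Members with none had a median of 22583 UMIs and doublet calls on 42 (23.9%, 17.8 to 30.9%), with 172 in cluster 9. Members with 1 to 4 T names had a median of 19347 UMIs and doublet calls on 40 (27.6%, 20.5 to 35.6%), with 118 in cluster 9, and 123 of the 145 came from LGG. In HGG their median was 7360 UMIs, with 7 of 14 in cluster 9 and doublet calls on 2, against 25054.5 UMIs, 51 of 52 in cluster 9 and doublet calls on 19 for HGG members with no T name. In no tumor, 4 of 8 lay in cluster 9.

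HGG and LGG differed in the members with some and with no T names. Members with 1 to 4 T names were 16.3% of the class in HGG (14 cells, 9.20 to 25.8%), 38.3% in LGG (123 cells, 33.0 to 43.9%) and 27.6% in no tumor (8 cells). The difference of HGG minus LGG was -22.0 points (-30.4 to -11.5). Members without any T name were 60.5% of the class in HGG (49.3 to 70.8%), 33.6% in LGG (28.5 to 39.1%) and 55.2% in no tumor (35.7 to 73.6%). Here HGG minus LGG was 26.8 points (15.0 to 37.7) and LGG minus no tumor -21.5 points (-38.7 to -3.11). Members with 5 or 6 T names formed 23.3% of the class in HGG (20 cells), 28.0% in LGG (90 cells) and 17.2% in no tumor (5 cells), with HGG minus LGG at -4.78 points (-14.0 to 6.20). The difference was widest among the deepest cells. From 20000 UMIs up, 39 of 42 members in HGG had no T name, against 63 of 145 in LGG and 6 of 10 in no tumor. From 10000 to under 20000 UMIs, 10 of 17 members in HGG had none, against 33 of 82 in LGG and 8 of 11 in no tumor. Within the common range of UMIs, which kept 31 members in HGG and 120 in LGG, HGG minus LGG was -3.87 points for members with no T name (-16.0 to 13.8). For those with 1 to 4 T names it was 1.53 points (-14.0 to 20.5). Without doublet calls, both differences between HGG and LGG kept intervals off 0, at 16.9 points for no T name (3.64 to 29.9) and -14.6 points for 1 to 4 (-24.3 to -2.25). LGG minus no tumor for no T name was then -18.0 points, with an interval that included 0 (-36.3 to 0.842).

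**Figure D5:**
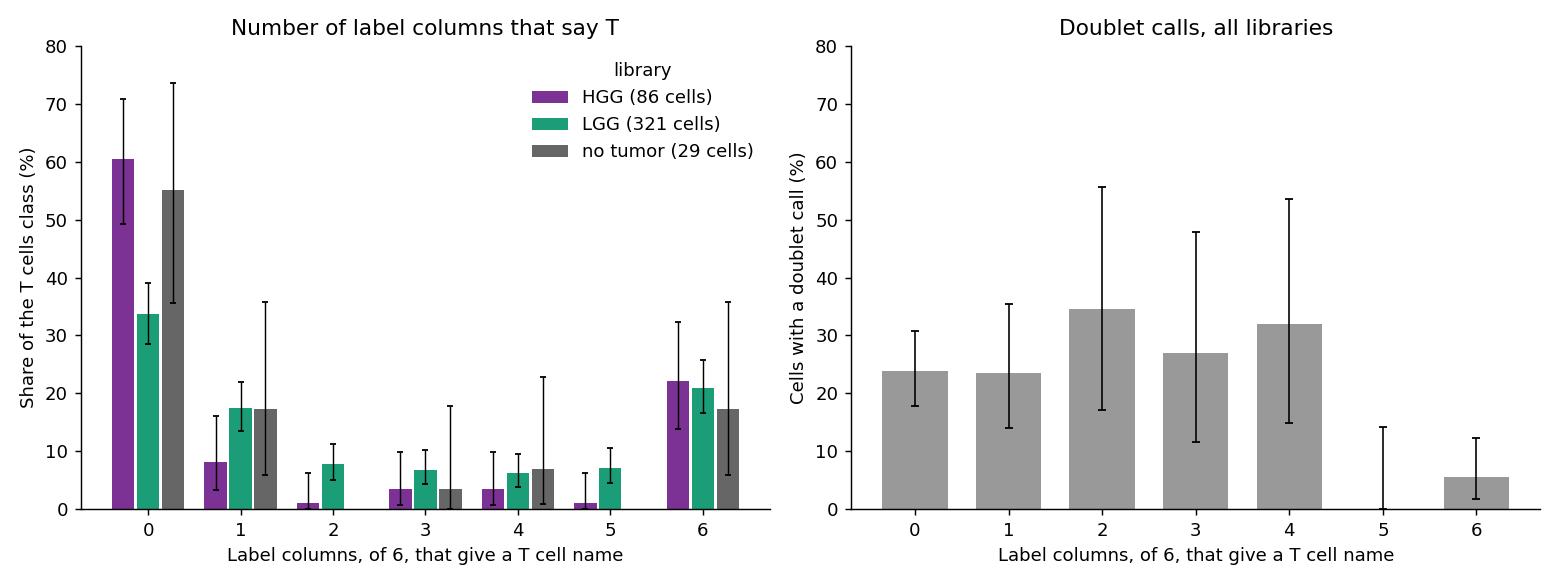
Share of the class (left, percent) by the number of label columns, of 6, that give a T cell name, in the HGG, LGG and no-tumor libraries, and percent of cells with a doublet call at each number over all libraries (right), with exact 95% intervals. The HGG and no-tumor libraries stand highest at 0 names (60.5% and 55.2%) while LGG has more cells between, and doublet calls run from 23.5% to 34.6% at 0 to 4 names and to at most 5.49% at 5 and 6.

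As a share of their library, members with 5 or 6 T names were 12.7-fold as frequent in LGG as in no tumor (5.16 to 31.2, called higher) and 0.272-fold as frequent in HGG as in LGG (0.168 to 0.441, called lower). HGG over no tumor was 3.46-fold (1.30 to 9.20) without a call, from 20 and 5 cells. Members without a T name were called in all 3 comparisons, at 2.81-fold in HGG over no tumor (1.61 to 4.91), 0.590-fold in HGG over LGG (0.425 to 0.819) and 4.76-fold in LGG over no tumor (2.82 to 8.04).

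Finer T cell names were taken from the earlier annotation, which gave them to 23 members in HGG, 137 in LGG and 10 in no tumor. By this annotation, CD8 names led in LGG and in no tumor, and CD4 names led in HGG. The SingleR column of finer names did not share the lead of CD8 names. Its most frequent T cell name was a CD4 name with 26 members (6 in HGG, 17 in LGG, 3 in no tumor). Its most frequent CD8 name had 13 members (5, 8 and 0). CD8 T cells were 7 of the 23 in HGG (30.4%, 13.2 to 52.9%), 76 of the 137 in LGG (55.5%, 46.7 to 64.0%) and 7 of the 10 in no tumor (34.8 to 93.3%). The difference of HGG minus LGG was -25.0 points (-41.9 to -2.97) and that of HGG minus no tumor -39.6 points (-63.8 to -3.00). These differences were not recomputed without doublet calls or within the common range of UMIs. The members with a CD8 name had medians of 8256 UMIs in HGG, 15613.5 in LGG and 9633 in no tumor. Doublet calls lay on 1, 14 and 0 of them, and 6, 42 and 3 had 5 or 6 T names. CD4 T cells were 11 in HGG (47.8%, 26.8 to 69.4%), 39 in LGG (28.5%, 21.1 to 36.8%) and 2 in no tumor, with HGG minus LGG at 19.4 points (-0.903 to 39.8). Regulatory T cells were 5 in HGG, 22 in LGG and 1 in no tumor, with HGG minus LGG at 5.68 points (-8.31 to 26.5). These shares describe what the class holds and not all T cells, because the CD8 T cells class (12 cells in HGG, 147 in LGG, none in no tumor) and the CD4 T cells class (8, 23 and none) lie outside it. The no-tumor library thus had no cell in either finer class, while its T cells class held the 7 CD8 and 2 CD4 names.

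The finer names differed in cluster, depth and number of T names. Of the 52 members with a CD4 name, 45 lay in cluster 10 and 46 had 5 or 6 T names, with a median of 6570.5 UMIs and doublet calls on 3. The 90 members with a CD8 name were split between cluster 9 (46) and cluster 10 (44), and 36 of them were microglia-named. Their median was 13998 UMIs, 51 had 5 or 6 T names and 15 had a doublet call. The 28 regulatory T cell names lay mostly in cluster 10 (23), with a median of 14089.5 UMIs and 4 doublet calls. A further column with finer labels divided most of the CD4 and CD8 names into effector memory and central memory cells. These are antigen-experienced T cells of the tissues and of the lymph nodes. It named 52 CD8 effector memory (2 in HGG, 49 in LGG, 1 in no tumor), 31 CD8 central memory (4, 24 and 3) and 47 CD4 effector memory cells (9, 38 and 0). The first VHove column, on other names, gave 22 members the name of regulatory T cells, 3 in HGG, 19 in LGG and none in no tumor. For none of 29 members, the limit of 3 counts is 10.3% and the exact interval reaches 11.9%.

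Phase calls, which the depositors assigned from scores for S phase and for G2 and M phase, differed between the groups of names. Of all members, 43.3% were called G1 (38.6 to 48.1%), against 62.1% of the cells outside the class (61.3 to 63.0%). By library, G1 calls were 44.2% of the class in HGG, 41.4% in LGG and 62.1% in no tumor, with LGG minus no tumor at -20.6 points (-36.8 to -1.76). That interval included 0 without doublet calls (-17.6 points, -34.9 to 1.89) and within the common range of UMIs (-16.7 points, -46.2 to 13.2). T-named members were rarely called G1 (15 of 98, 15.3%, 8.83 to 24.0%), with 40.8% in S and 43.9% in G2M, while 54.7% of the microglia-named members were called G1 (48.5 to 60.8%). Within the common range of UMIs, G1 calls were 14.7% of the T-named members (7.28 to 25.4%), 32.1% of all members and 63.7% of the cells outside the class, so the order held within that range. The CD8 T cells class had 16.4% in G1 (11.0 to 23.0%). Phase calls alone show no cycling, since the scores of most members were near 0 and the gene lists are not given. The median G2M score of the T-named members was 0.0217 in HGG, 0.0271 in LGG and 0.0101 in no tumor. Microglia-named members had medians of -0.0341, -0.0212 and -0.0551. A score over 0.5 was rare, with 7 members for S phase, all T-named (1 in HGG, 6 in LGG), and 2 members for G2M, both in LGG.

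By the first SingleR column, the class held a minority of the cells with a T cell name in the series, and the part it held differed between libraries. The first SingleR column named 281 cells T, NKT or Tgd, 98 of them in the class (34.9%, 29.3 to 40.8%). The class held 20 of 36 such cells in HGG (55.6%), 73 of 240 in LGG (30.4%) and all 5 in no tumor, with HGG minus LGG at 25.1 points (8.04 to 41.0). Of the others, 119 were in the CD8 T cells class, 24 in the CD4 T cells class and 25 in the intermediate monocyte-macrophage class. Over all classes, T-named cells were 33.9-fold as frequent in LGG as in no tumor (14.0 to 82.0), 0.184-fold as frequent in HGG as in LGG (0.130 to 0.260) and 6.22-fold as frequent in HGG as in no tumor (2.44 to 15.8), each with a call. Each of these ratios was further from 1 than that of the class alone. The CD8 and CD4 T cells classes had 5 or 6 T names on 132 of 159 (83.0%) and 27 of 31 cells (87.1%), against 26.4% in the class, and the NK cells class on 3 of 70.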

How the data were processed

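The data were a single table with a row for each of 12668 cells and 64 columns, of which 31 were read and 33 were not used. Per the labels' protocols, Cell Ranger 3.0.2 mapped and counted the reads on mm10. The submitters' processing notes also name Seurat 4. Each cell has a UMI count and a gene count as the authors deposited them, without normalization. The mitochondrial percent of UMIs is also as deposited, and its gene pattern is not stated. The authors' S and G2M scores, and a layout score on each of 2 axes, were used as deposited, with their gene lists and settings unknown. How cells were kept and how doublets were called is not stated either. With no value per gene read, the planned marker genes were not used.

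The members and the lists of names were chosen with earlier results of these data known, and the bands of T names were set after the counts were seen. Cells were assigned to a library by its name. Shares have exact Clopper-Pearson, ratios Katz log and differences of shares Newcombe intervals, all at 95%, computed with Python 3.11.15, scipy 1.17.1 and pandas 2.3.3. The interval functions were tested on simulated data. For a count of 0, the limit is 3 counts. T cell names counted were T cells, NKT and Tgd (first SingleR column), T cells (second SingleR, second VHove and scANVI columns), T cells and regulatory T cells (first VHove column) and CD4, CD8 and regulatory T cells (earlier annotation, a name used here only). Finer label names were read where they covered at least 5 members in 1 or more libraries. UMIs could not be thinned without values per gene, so a common range of UMIs was used, from the highest of the 10th to the lowest of the 90th percentiles of the libraries. Alternatives were cells without doublet calls, the common range, at least 1000 UMIs, at least 500 genes, at most 5% mitochondrial UMIs, other denominators, other label columns and other bounds of the class.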

Additional observations from a re-analysis of the deposited data

How the results depend on the processing

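Of the 221 values recomputed under an alternative, 176 kept their direction and call or moved within their interval. For the class, LGG over no tumor lost its call among lymphoid cells (1.49), HGG over LGG turned to 1.09 there, and HGG over no tumor turned to 0.933 outside the microglia class. HGG over no tumor also lost its call in cluster 10 alone (2.02) and with 5 or 6 T names (3.46), both chosen after seeing the data. T-named members lost the call in HGG over LGG within the common range of UMIs (0.628). They gained it in HGG over no tumor there (9.20) and with at most 5% mitochondrial UMIs (6.88), each against 3 no-tumor cells. Microglia-named members lost the call in HGG over no tumor without doublet calls (1.92) and in the common range (6.90, 8 and 2 cells), and turned to 0.943 outside the microglia class. Otherwise-named members, never called, turned to 0.600 in LGG over no tumor and 0.419 in HGG over no tumor outside the microglia class, and to 0.764 in HGG over no tumor with at most 5% mitochondrial UMIs. Within the common range, the T-named share of the class stood at 51.6% in HGG, 40.8% in LGG and 37.5% in no tumor, the doublet share at 6.45%, 1.67% and 0%, and the G1 share at 22.6% in HGG and 33.3% in LGG. The range kept 69.4% of the T-named and 21.9% of the microglia-named members, and the doublet share within it was 3.45% of the microglia-named members and 0 of 68 T-named ones. By label column, the T-named share moved in HGG to 37.2% (scANVI). In LGG it moved to 36.4% (second SingleR), 31.5% and 43.0% (first and second VHove), 63.2% (scANVI) and 42.7% (earlier annotation). Macrophage-named members lost the call in LGG over no tumor outside the microglia class (3.49), and 16 shares within single groups of names moved in the common range or by another label column. The cause of the other changes was not tested. Pooled with the CD8 and CD4 T cells classes, an alternative added after seeing the data, the class was 11.9-fold as frequent in LGG as in no tumor, 0.265-fold in HGG over LGG and 3.16-fold in HGG over no tumor. With 29 no-tumor members, 5 of them T-named, the small number of members from that library limits each comparison with it. No paired analysis was possible because each group is 1 library.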
